A study of Mus musculus with 41 samples.

Results

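H3K18la peaks of white adipocytes (ADIPO) and of gastrocnemius muscle (GAS) were set against each other to ask where the mark was called in both tissues, and which genes lie beside the distal regions they share. The comparison used the 2 H3K18la peak sets of these tissues, with 28212 ADIPO and 36322 GAS peaks on chromosomes 1 to 19, out of 533048 peaks in the 24 sets of the series. Both sets were merged, and a merged region was called ADIPO-only, GAS-only or shared, where shared means that an ADIPO peak and a GAS peak overlap by at least 1 bp. A region was a promoter region when it came within 2000 bp of an annotated transcription start site (TSS) of any transcript, and distal otherwise. This gave 50186 regions, of which 18570 were promoter and 31616 were distal regions.

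CUT&Tag, in which an antibody directs the transposase Tn5 to cut and tag DNA beside a histone modification, was run on nuclei of both tissues. ADIPO samples were nuclei of white adipocytes from snap-frozen epididymal fat of 10-week-old female AdipoCre-NuTRAP mice, as the study's methods put it, with C57BL/6 as the labelled strain. Epididymal fat is a depot of male mice, so the sex or the depot given for ADIPO is uncertain. In these mice an adipocyte-specific Cre switches on a tag of the nuclear envelope, and the tagged nuclei were captured on beads, so the ADIPO sets hold nuclei of cells in which that Cre was active. GAS samples were nuclei of whole snap-frozen M. gastrocnemius from female C57Bl6/J mice aged 8 to 12 weeks, and they hold fibres together with every other cell type of the muscle. Nuclei of the fat were dounced in a Tris buffer with Igepal and those of the muscle in a prelysis buffer of a histone extraction kit, and sodium butyrate was added to the buffers of both. Both groups carry the treatment label control. Each tissue has 2 H3K18la samples, which were pooled before peak calling, so no value of a tissue has a replicate error and differences between the tissues were not tested. Intervals in brackets are 95% Wilson intervals and cover counting error only.

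Lactylation of lysine 18 of histone H3 is an acylation derived from lactate. Skeletal muscle produces and oxidises lactate, and white adipocytes release it. H3K27ac, acetylation of lysine 27 of the same histone, marks active promoters and enhancers, H3K4me3 marks active promoters, and H3K27me3 marks repressed chromatin. Adipocytes and muscle fibres both take up glucose in response to insulin, both store or burn fatty acids, and both descend from mesoderm. C/EBP and PPAR factors drive the adipocyte programme, whereas MYOD and MEF2 factors drive that of the fibre.

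In all, 6 windows from shared distal regions are shown, because the coverage of ADIPO and of GAS peaked at nearly the same bases there. Each window is 300 bp wide (mm10, forward strand, read from GRCm38.p6 of RefSeq) and is centred between the highest-coverage stretches of both tissues, whose centres lay 3 to 90 bp apart. Nfib (chr4:82531092-82531391) lies in an intron and belongs to the strongest shared distal regions. The other 5 belong to genes with the most shared distal regions. They are Nfia (chr4:98104198-98104497, intron), Irs2 (chr8:11089289-11089588, intergenic), Trib1 (chr15:59680601-59680900, intergenic), Tcf7l2 (chr19:55851977-55852276, intron) and Ebf1 (chr11:45264002-45264301, intergenic). Capitals mark matches, on either strand, to the 12 motifs listed further on. In Nfia this is a C/EBP match, in Irs2 and Ebf1 they are MYOD E-boxes, in Trib1 a TEAD match and an E-box, and in Tcf7l2 an E-box that overlaps an AP-1 match. The Nfib window holds none of them.
Nfib: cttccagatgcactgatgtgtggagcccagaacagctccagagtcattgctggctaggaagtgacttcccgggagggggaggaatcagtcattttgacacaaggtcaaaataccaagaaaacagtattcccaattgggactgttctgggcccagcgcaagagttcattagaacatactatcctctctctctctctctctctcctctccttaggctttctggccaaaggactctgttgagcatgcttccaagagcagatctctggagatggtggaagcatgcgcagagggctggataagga
Nfia: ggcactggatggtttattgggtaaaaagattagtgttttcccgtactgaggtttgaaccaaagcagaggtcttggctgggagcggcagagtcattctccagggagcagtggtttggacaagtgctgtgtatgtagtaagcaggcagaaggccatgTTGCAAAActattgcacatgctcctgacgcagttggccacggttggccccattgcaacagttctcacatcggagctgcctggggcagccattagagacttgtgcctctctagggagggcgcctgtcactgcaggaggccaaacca
Irs2: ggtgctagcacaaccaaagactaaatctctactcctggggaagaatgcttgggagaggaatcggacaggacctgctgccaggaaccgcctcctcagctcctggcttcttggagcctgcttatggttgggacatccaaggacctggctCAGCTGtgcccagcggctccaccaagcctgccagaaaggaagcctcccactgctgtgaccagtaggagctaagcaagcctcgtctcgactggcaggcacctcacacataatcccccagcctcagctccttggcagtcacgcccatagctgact
Trib1: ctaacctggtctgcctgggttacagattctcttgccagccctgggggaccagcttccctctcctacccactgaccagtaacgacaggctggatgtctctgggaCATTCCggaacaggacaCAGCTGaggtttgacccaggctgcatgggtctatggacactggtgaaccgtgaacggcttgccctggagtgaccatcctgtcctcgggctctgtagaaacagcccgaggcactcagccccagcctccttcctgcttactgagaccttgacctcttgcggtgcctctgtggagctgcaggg
Tcf7l2: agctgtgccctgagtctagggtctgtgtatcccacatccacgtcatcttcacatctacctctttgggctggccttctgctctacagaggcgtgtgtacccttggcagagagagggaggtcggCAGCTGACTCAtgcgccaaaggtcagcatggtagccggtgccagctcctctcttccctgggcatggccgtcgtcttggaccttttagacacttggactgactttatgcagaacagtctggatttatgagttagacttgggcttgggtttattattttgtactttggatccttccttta
Ebf1: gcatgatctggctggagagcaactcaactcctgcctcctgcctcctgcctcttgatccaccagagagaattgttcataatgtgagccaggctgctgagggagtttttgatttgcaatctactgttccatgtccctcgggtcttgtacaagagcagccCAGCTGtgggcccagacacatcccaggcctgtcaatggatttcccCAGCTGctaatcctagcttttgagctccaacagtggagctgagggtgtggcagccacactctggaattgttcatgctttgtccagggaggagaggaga

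The labelled tissues were first checked at the promoters of marker genes, where a promoter counts as called when a peak comes within 2000 bp of a TSS of the gene. Of 20780 protein-coding genes, 45.6% had a called promoter in ADIPO, 37.0% in GAS and 27.4% in both. All 16 adipocyte markers were called in ADIPO, and the largest promoter peak of each ranked at or above the 91.7th percentile of total signal in the ADIPO list. Adiponectin (Adipoq), perilipin 1 (Plin1), leptin (Lep) and adipsin (Cfd) were not called in GAS, while Fabp4, Lipe, Pparg, Cebpa, Lpl, Aoc3 and Pnpla3 were. Skeletal muscle fibre markers were called at 17 of 20 promoters in GAS, all but the myosin heavy chains Myh1, Myh2 and Myh7, and at 6 of 20 in ADIPO. Those 6 were Acta1, Mb, Casq1, Des, Tnnc2 and Mylpf, of which Mb (myoglobin) ranked at the 99.5th and Acta1 (skeletal actin) at the 83.2nd percentile of the ADIPO list, and the last 4 between the 42.7th and 55.6th.

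Markers of other cell types were counted in the same way, where 45.6% of all genes had a called promoter in ADIPO and 37.0% in GAS. Endothelial markers were called at 16 of 16 promoters in GAS and at 3 of 16 in ADIPO, where Cdh5, Pecam1, Kdr, Tek and Erg were not called. Fibroblast and mesenchymal progenitor markers were called at 11 of 12 promoters in GAS and at 6 of 12 in ADIPO. In ADIPO the collagens Col1a1, Col1a2 and Col3a1 and also Dcn, Dpt and Lum were called. Their percentiles in the ADIPO list ran from 12.3 at Lum to 95.4 at Col3a1, with Dcn at 94.1 and Dpt at 93.5. Pdgfra, Ly6a, Pi16, Cd34, Thy1 and Mfap5 were not called there. Macrophage and leukocyte markers were called at 3 of 13 promoters in each tissue, with Ptprc and Adgre1 called in neither. Smooth muscle and pericyte markers were called at 6 of 12 promoters in GAS and 4 of 12 in ADIPO. The part of these cells in the shared regions was not tested, and fewer nuclei with the mark and a weaker mark per nucleus cannot be told apart in the GAS tissue.

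Sharing was more frequent at promoters than at distal sites. Of the promoter regions, 6534 (35.2%, 34.5 to 35.9%) were shared, 5966 (32.1%) were ADIPO-only and 6070 (32.7%) were GAS-only. Of the distal regions, 5235 (16.6%, 16.2 to 17.0%) were shared, 8792 (27.8%) were ADIPO-only and 17589 (55.6%) were GAS-only. The promoter share exceeded the distal share by 18.6 percentage points (Newcombe interval 17.8 to 19.4). Counted by peak, 43.3% of the 15503 distal ADIPO peaks and 25.4% of the 23576 distal GAS peaks overlapped the other list, and the GAS list holds more distal peaks. At promoters the peak counts were close, with 53.1% of 12709 ADIPO peaks and 52.4% of 12746 GAS peaks overlapping.

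In bases the order depended on the measure. Of the distal ADIPO bases, 38.5% were also covered in GAS, against 46.6% of the promoter ADIPO bases. Of the distal GAS bases 20.8% were also covered in ADIPO, against 40.4% of the promoter GAS bases. As a share of either list, overlap was thus higher at promoters. Relative to how much sequence the lists cover it was higher at distal positions. There ADIPO peaks covered 2.27% and GAS peaks 4.202% of the sequence, and the 19.1 Mb covered by both was 9.17 times the product of these shares. At promoters the peaks covered 9.46% and 10.9%, and the 12.1 Mb covered by both was 4.27 times the product. With 5000 peaks per list the ratios were 15.7 at distal and 7.82 at promoter positions.

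Overlap rose with the total signal of a peak, the summed coverage over its length. Each list was cut into 5 bins of equal peak number, since coverage was not scaled between the tissues and can only be ranked within a list. From the lowest to the highest bin, the share of distal ADIPO peaks that overlapped a GAS peak rose from 34.8% (33.3 to 36.4%) to 59.8% (58.0 to 61.6%). Among distal GAS peaks it rose from 16.2% (15.2 to 17.2%) to 43.6% (42.1 to 45.2%). At promoters the share rose from 37.1% to 72.8% for ADIPO peaks and from 40.1% to 63.2% for GAS peaks. Strong peaks are also wide, and by bins of width the share of distal overlapping peaks rose from 34.2% to 58.3% in ADIPO and from 20.5% to 41.1% in GAS. By the maximum of the coverage, a measure that does not add up over width, it rose from 37.7% to 55.4% and from 17.7% to 36.7%.

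**Figure D1:**
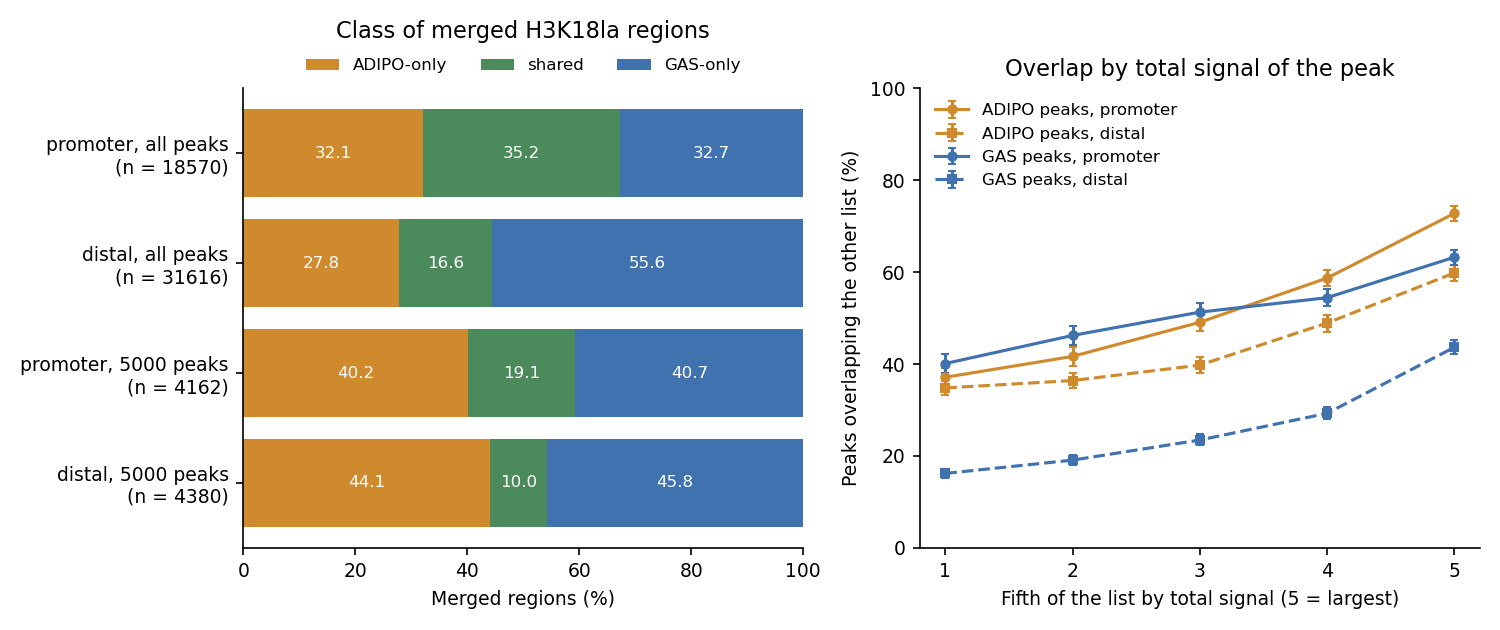
The left panel gives the percent of merged H3K18la regions that were ADIPO-only, shared or GAS-only, at promoter and distal positions, from all peaks and from 5000 peaks per list, with n regions per bar. The right panel gives the percent of peaks (y axis) that overlapped the other tissue's list by bin of total signal (5 bins of equal peak number) (x axis), with 95% Wilson intervals, and distal ADIPO peaks rise from 34.8% to 59.8%.

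With the 5000 peaks of largest total signal in each list, a smaller part of the regions was shared. Of 4380 distal regions 440 were shared (10.0%, 9.19 to 11.0%), and of 4162 promoter regions 796 were (19.1%, 17.96 to 20.3%). The difference fell to 9.08 points. Many regions left the shared class only because the weaker partner fell below the cut. Of the 1932 distal regions that were ADIPO-only among 5000 peaks, 48.6% (46.3 to 50.8%) overlapped some peak of the whole GAS list, and 34.2% (32.1 to 36.3%) of the 2008 GAS-only regions overlapped some peak of the whole ADIPO list. Median widths of these ADIPO-only and GAS-only regions were 4862.5 and 7073.5 bp, and 1 bp of overlap sufficed. Over all distal peaks, 43.3% of ADIPO and 25.4% of GAS peaks overlapped the other list. Part of the strongest peaks of a tissue was therefore present, at lower rank, in the other.

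Within shared regions the tissues ranked the regions differently. Shared distal regions had a median width of 3769 bp, against 1714.5 bp for ADIPO-only and 2180 bp for GAS-only regions, partly because merging joins peaks. The median percentile of the strongest ADIPO peak was 59.3 in shared and 39.6 in ADIPO-only distal regions, and that of the strongest GAS peak was 63.3 in shared and 42.2 in GAS-only regions. Over the 5235 shared distal regions the rank correlation of both percentiles was 0.192, and over the 6534 shared promoter regions it was 0.288, with no p since regions of 1 list share a library and regions share peak width. The centres of the highest-coverage stretches lay within 500 bp of each other in 3113 shared distal regions (59.5%), with a median gap of 298 bp. Of the bases of shared distal regions, 47.4% were covered in both tissues.

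By position in genes, 44.3% of shared distal regions were intergenic, 39.6% (38.2 to 40.9%) intronic and 16.2% (15.2 to 17.2%) overlapped an exon. Among ADIPO-only regions the shares were 48.0%, 37.1% and 14.9%, and among GAS-only regions 43.1%, 45.8% (45.1 to 46.5%) and 11.1% (10.7 to 11.6%). The median distance to the nearest TSS of a protein-coding gene was 23220 bp, against 23487 bp for ADIPO-only and 25634 bp for GAS-only regions. Within 10 kb of such a TSS lay 26.7% of them, and 13.8% lay beyond 100 kb.

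H3K27ac separated the 3 distal classes. ADIPO H3K27ac was called at 67.4% (66.1 to 68.7%) of shared, 46.0% of ADIPO-only and 2.13% of GAS-only distal regions. GAS H3K27ac was called at 68.3% (67.1 to 69.6%) of shared, 56.4% of GAS-only and 17.9% of ADIPO-only regions. The GAS H3K27ac list covers 7.98% of the genome and the ADIPO list 2.18%. Of the shared distal regions, 2509 (47.9%, 46.6 to 49.3%) had H3K27ac in both tissues, 1020 (19.5%) in ADIPO alone, 1068 (20.4%) in GAS alone and 638 (12.2%) in neither. Among the 440 shared distal regions of the 5000-peak lists, 96.6% had it in both. H3K27ac in both was found at 8.78% of ADIPO-only and 1.54% of GAS-only distal regions.

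Wider regions meet other peaks more readily, so the same lists were read in a window of 300 bp at the highest-coverage stretch, a measure added after the data were seen. ADIPO H3K27ac was then called at 63.6% of shared windows centred on the ADIPO stretch, at 43.8% of ADIPO-only and at 1.58% of GAS-only windows. GAS H3K27ac was called at 61.7% of shared windows centred on the GAS stretch, at 51.3% of GAS-only and at 15.1% of ADIPO-only windows. The order of the classes was the same as over whole regions. H3K27ac in both tissues was also tied to signal. Shared distal regions were ranked by the lower of their 2 percentiles, and from the lowest to the highest of 5 equal bins the share with H3K27ac in both rose from 21.9% (19.5 to 24.5%) to 86.0% (83.7 to 87.9%), while the share with it in neither fell from 24.9% to 0.287%. Median width rose over these bins from 2649 to 6759 bp.

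Shared distal regions were also the ones called most often in the 6 other H3K18la lists. These come from embryonic stem cells in serum (ESC-ser) or 2i medium (ESC-2i), myoblasts (MB) and the myotubes formed from them (MT), bone marrow-derived macrophages (BMDM) and post-ischemia macrophages of muscle (PIM). The MB and BMDM lists rest on a single sample each. Myotube H3K18la was called at 54.7% of shared, 39.1% of GAS-only and 16.5% of ADIPO-only distal regions. In PIM the shares were 36.2%, 18.9% and 12.8%, and in BMDM they were 23.1%, 10.9% and 7.23%. In the 300-bp windows MT H3K18la was called at 49.6% of shared windows on the GAS stretch, 35.6% of GAS-only and 14.3% of ADIPO-only windows.

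Few shared distal regions carried the mark in every cell type. Of the 5235, 541 (10.3%) were called in all 3 of the other lineages (stem cells, muscle cultures, macrophages), 144 (2.75%) in all 6 lists and 1428 (27.3%, 26.1 to 28.5%) in none. A further 1163 (22.2%) were called in muscle cultures and no other of these lineages, and 416 (7.95%) in macrophages alone. Shared promoter regions were broader, with 36.9% called in all 3 lineages and 9.46% in none of the 6 lists. H3K4me3 of GAS, the only one of these tissues with that mark, was called at 29.9% of shared, 12.8% of GAS-only and 5.27% of ADIPO-only distal regions. H3K27me3 of GAS was called at 4.97%, 3.66% and 8.09% of them.

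**Figure D2:**
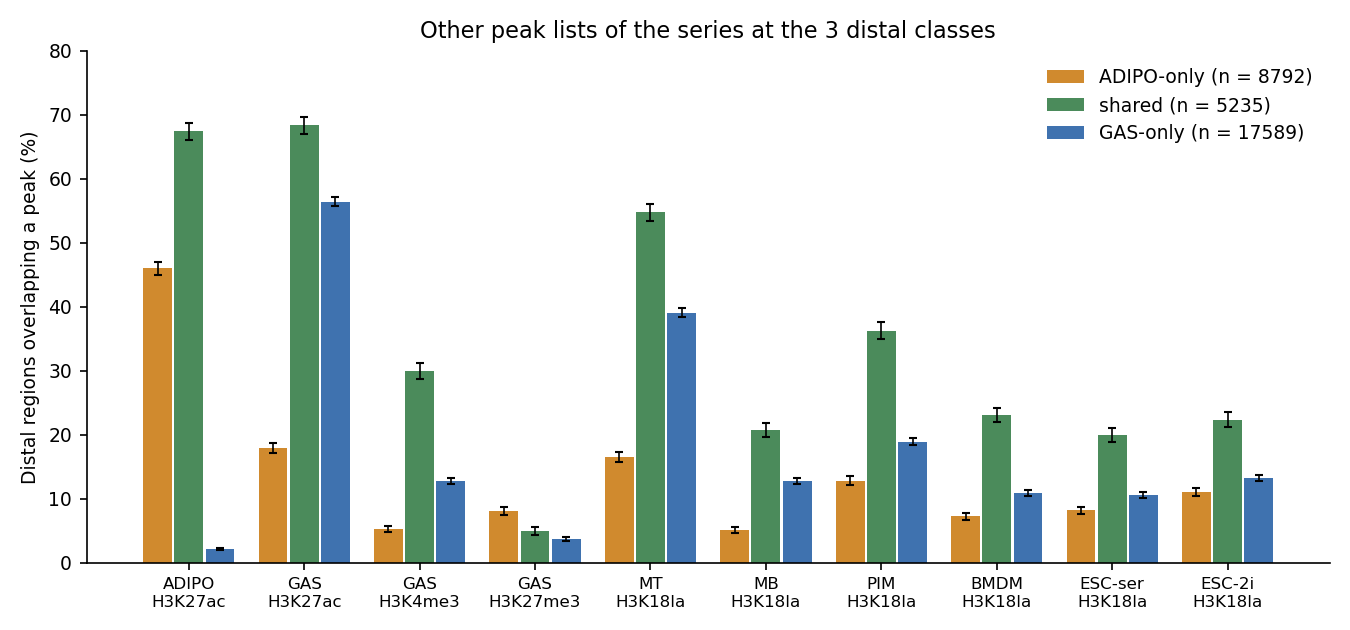
Percent of ADIPO-only, shared and GAS-only distal H3K18la regions (y axis) that overlapped a peak of 10 other lists (x axis), with 95% Wilson intervals and n regions per class in the key. The shared class is highest in 9 of the 10 lists, and for GAS H3K27me3 the ADIPO-only class is highest at 8.09%.

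No small set of genes accounted for the shared distal regions. Each region was given to the protein-coding gene with the nearest TSS, which need not be the gene it acts on. At least 1 shared distal region was nearest to 2651 genes, 12.8% of all, compared with 19.3% for ADIPO-only and 25.6% for GAS-only regions. Of these genes, 1581 had 1, 876 had 2 to 4 and 194 had 5 or more shared distal regions, and 555 genes were needed to hold 50% of the regions. The 20 leading genes held 294 regions, or 5.62%. They hold much genome: the sequence nearest to their TSS had a median of 457 kb, against 43.6 kb for all genes, with a lowest value of 280 kb. The count per 100 kb of that sequence was 1.34 to 4.72 for the 20 genes and 0.213 over all genes.

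Genes beside shared distal regions often had a called promoter in both tissues. The nearest gene had one at 62.6% (61.2 to 63.9%) of shared distal regions, 45.9% of ADIPO-only and 47.8% of GAS-only regions. With 5000 peaks per list, where promoter calls were read from the reduced lists too, the share for shared regions was 28.0%, against 3.21% of all protein-coding genes called in both reduced lists. With the whole lists, genes with a promoter called in both make up 27.4% of protein-coding genes and own 26.96% of the sequence shared out by nearest TSS. Of the 194 genes with 5 or more shared distal regions 161 (83.0%) had it, and of the 20 leading genes 19 did. The exception was Gm9747, a predicted gene, whose promoter was called in neither. Its TSS lies within Irs1 (chr1:82233101-82291416), an insulin receptor substrate gene. The Irs1 promoter was called in both tissues, at the 97.0th percentile in ADIPO and the 98.9th in GAS.

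The 20 leading genes had 12 to 24 shared distal regions each. Lpp, a LIM-domain protein of focal adhesions, led with 24, beside 8 ADIPO-only and 35 GAS-only regions. Nuclear factor I A (Nfia), early B cell factor 1 (Ebf1), both transcription factors of fat cell differentiation, and the zinc finger repressor Zbtb20 followed with 17 each. Foxo1, the forkhead factor that insulin signalling restrains, had 16. Plpp3, a lipid phosphate phosphatase, Arhgap26, Dlc1 and Gm9747 had 15 each. Gadd45g, the BAF complex subunit Arid1b, the pseudokinase Trib1 and the Wnt effector Tcf7l2 had 14 each. Zfp36l1, which promotes mRNA decay, Pik3r1, a regulatory subunit of PI3-kinase, and the zinc finger gene Tshz2 had 13 each, and Gse1, Thada, Nfib and the insulin receptor substrate Irs2 had 12 each.

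The balance of the classes differed among these genes. At Nfia 17 of 32 distal regions were shared, 13 were ADIPO-only and 2 were GAS-only, and at Tcf7l2 14 of 27 were shared, with 11 ADIPO-only and 2 GAS-only. Nfib, a gene of the same family as Nfia, had 12 shared, 2 ADIPO-only and 38 GAS-only regions. Pik3r1 had 21 regions of each unshared class. The shared part ran from 23.1% of all distal regions at Nfib to 63.2% at Thada, where 16.6% of all distal regions were shared.

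At Nfia, all 17 shared regions were intronic and 13 had H3K27ac in both tissues. The strongest spanned chr4:98089670-98110382, ranked at the 99.9th percentile in ADIPO and the 95.3rd in GAS, and holds the window printed above. Only 2 of the 17 were called in macrophages and 4 in myoblasts or myotubes, and 12 had no H3K18la in any of the 6 other lists. Zbtb20 was alike in this, with 11 of 17 regions called in no other H3K18la list and 11 with H3K27ac in both.

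Foxo1 and Irs2 lie in the insulin pathway and carried shared regions far outside the gene. At Foxo1, 13 of 16 regions were intergenic. The strongest, chr3:52596686-52608792, lies 328350 bp from the TSS and ranked at the 98.9th percentile in ADIPO and the 98.3rd in GAS. Of the 16, 8 had H3K27ac in both tissues. At Irs2, 11 of 12 regions were intergenic, and 8 had H3K27ac in both. The region whose lower percentile was highest, chr8:11083903-11092631, lies 75445 bp from the TSS, at the 90.2nd percentile in ADIPO and the 93.5th in GAS, with centres 3 bp apart. Other regions were unequal: chr8:10932958-10938197 ranked at the 91.6th percentile in ADIPO and at the 5.06th in GAS, and chr8:10986900-10998472, which overlaps an exon of Irs2, at the 46.4th and the 97.9th.

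Trib1, Gadd45g and Irf2bp2 had regions that were shared more widely. All 14 shared regions of Trib1 were called in macrophages and 13 in myoblasts or myotubes. Of these, 3 lie in introns of Nsmce2, and their nearest TSS is that of Trib1. All 14 of Gadd45g were called in myoblasts or myotubes and 8 in macrophages. Irf2bp2, a co-repressor with 10 shared distal regions, had all 10 called in myoblasts or myotubes, 8 in macrophages and 9 with H3K27ac in both tissues.

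Ebf1, Tshz2 and Dlc1 stood apart in H3K27ac. They were the only 3 of the 31 genes with 10 or more shared distal regions at which none of these regions had H3K27ac in both tissues. At Ebf1, 13 of 17 shared regions had H3K27ac in ADIPO and none had it in GAS. None of the 53 distal regions of Ebf1, the 13 GAS-only regions included, overlapped a GAS H3K27ac peak, and neither did its promoter, while GAS H3K4me3 and GAS H3K18la were called there. At Tshz2, 9 of 13 had it in ADIPO, and none of its 38 distal regions nor its promoter had it in GAS. At Dlc1, 6 of 15 had it in ADIPO, and 1 of its 34 distal regions had it in GAS, although its promoter did. Over all shared distal regions, 68.3% had GAS H3K27ac. The median GAS percentile of H3K18la in the shared regions was 47.0 at Ebf1, 71.5 at Tshz2 and 55.5 at Dlc1, against 63.3 over all shared distal regions. The GAS libraries of the 2 marks are separate samples, and whether the animals were the same is not given in the sources used here. GAS H3K27me3 was called at 2 of the 17 regions of Ebf1 and at none of those of Tshz2 and Dlc1. Trabd2b, with 8 shared distal regions, had 7 with H3K27ac in ADIPO and none in GAS.

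**Figure D3:**
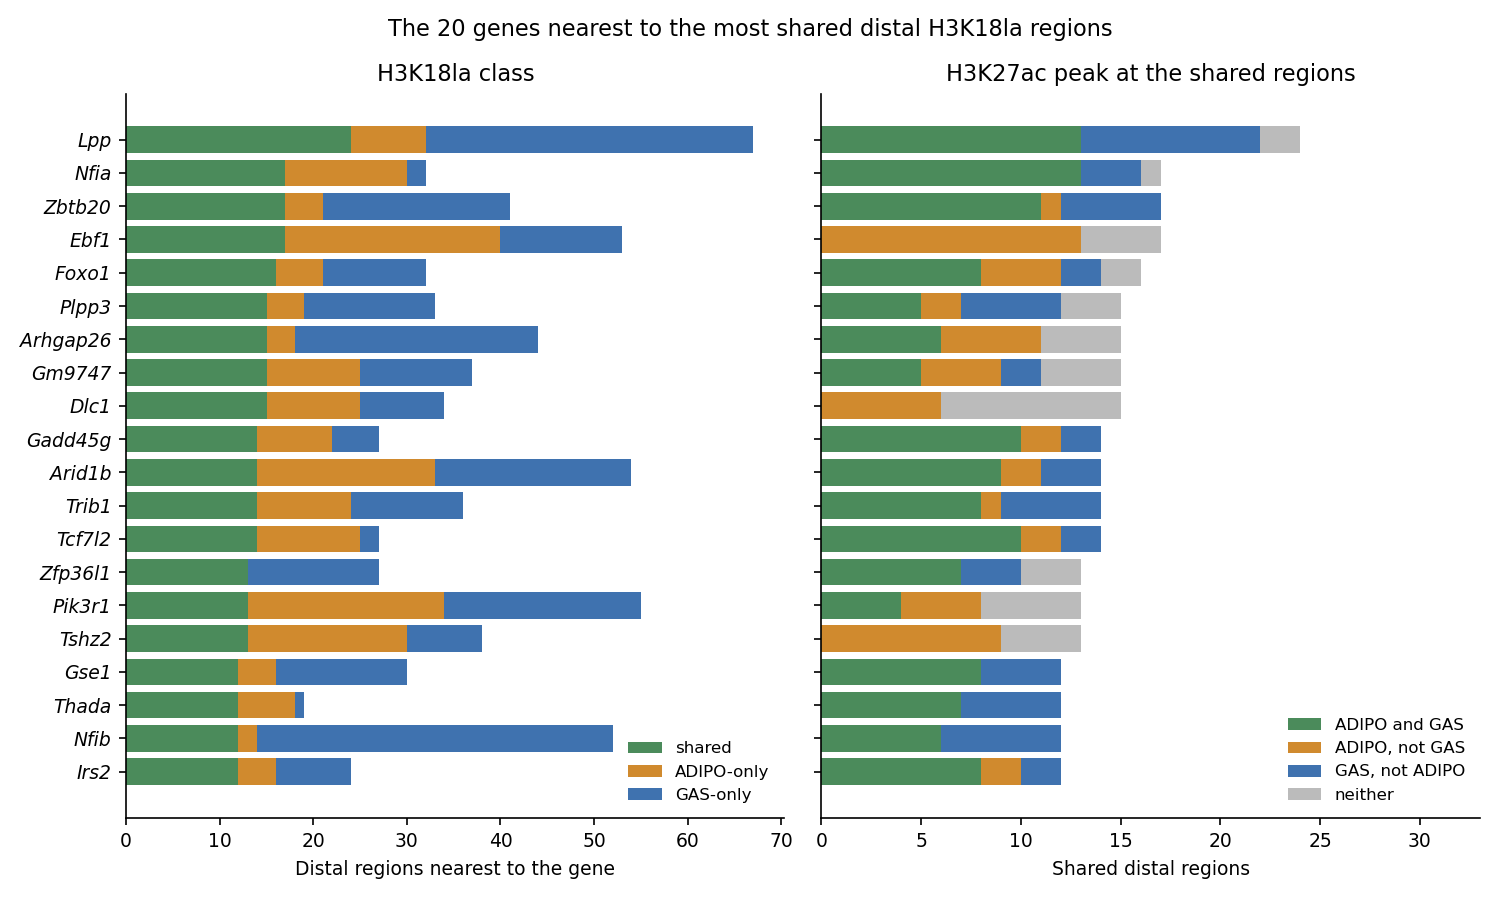
Distal regions nearest to each of the 20 leading genes (x axis, number of regions). The left panel splits all of them by H3K18la class, and the right panel splits the shared ones by where H3K27ac was called, and no shared region of Ebf1, Tshz2 or Dlc1 has H3K27ac in GAS.

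**Figure D4:**
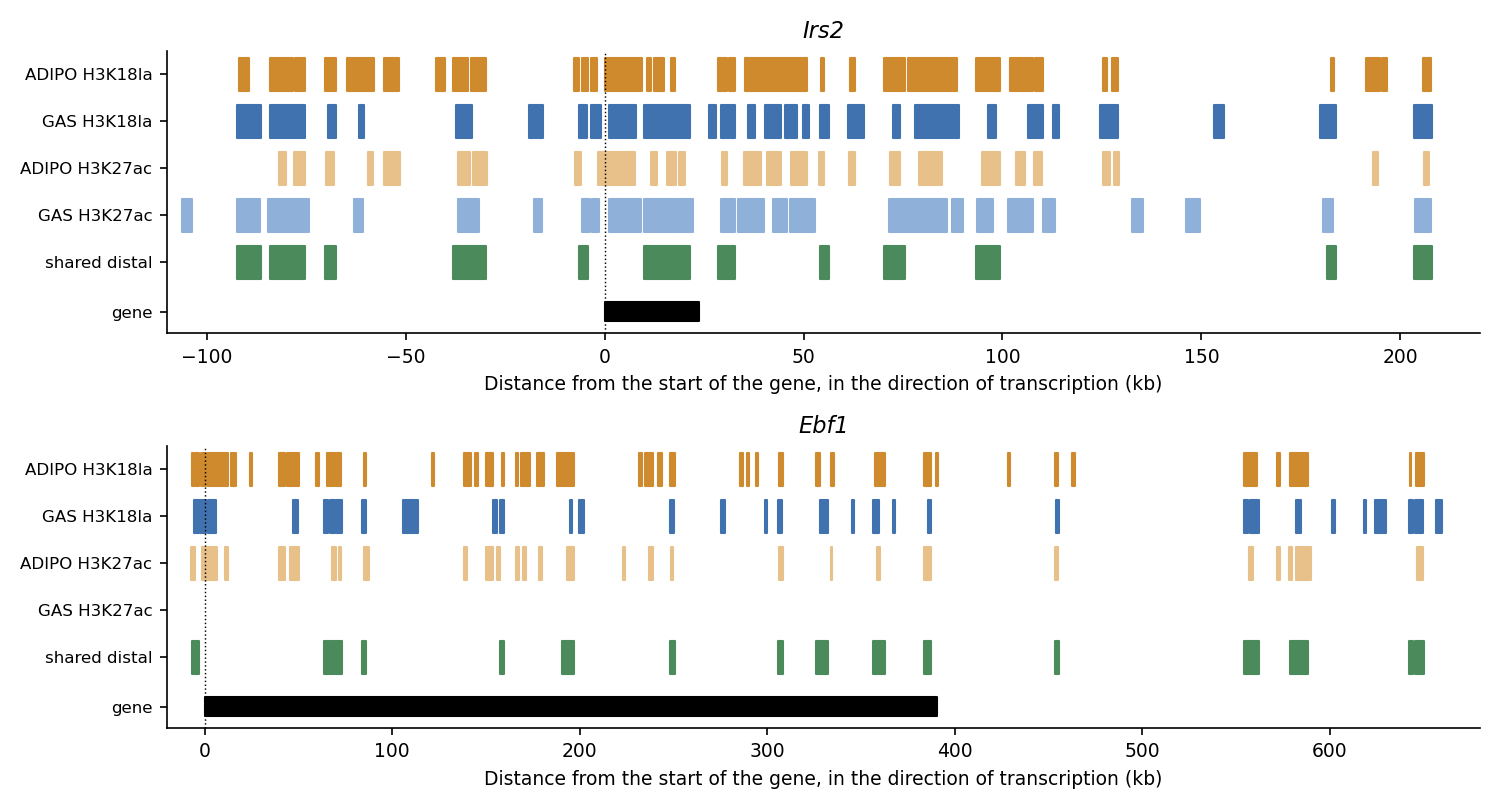
Peaks of H3K18la and H3K27ac in ADIPO and GAS and the shared distal regions around Irs2 and Ebf1, by distance from the start of the gene (x axis, kb, to scale), with the gene as a black bar. At Irs2 H3K27ac was called in both tissues at 8 of 12 shared regions, and at Ebf1 the GAS H3K27ac row is empty.

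In the 5000-peak lists 13 genes had 3 or more shared distal regions, and 7 of them belonged to the 20 above. Plpp3 led with 5 shared distal regions, followed by Irf2bp2, Zfp36l1 and Zbtb20 with 4 each, and 9 genes had 3 each, namely Tomm20, Bcl6, Nfia, Arhgap26, Foxo1, Zeb1, Trib1, Scaf8 and Vmn1r2. In these lists 358 genes had any and 64 had 2 or more shared distal regions. Outside the 20 stood Irf2bp2, the mitochondrial import receptor Tomm20, the repressors Bcl6 and Zeb1, Scaf8 and Vmn1r2. Tomm20 and Irf2bp2 are both on chromosome 8, and their regions were split by nearest TSS.

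Shared regions seen in none of the 6 other H3K18la lists were most frequent at Nfia, Tshz2 and Ebf1, with 12 each, then at Zbtb20 with 11 and at the thyroid hormone receptor Thrb with 9 of its 9 shared distal regions. Trabd2b followed with 8 of 8 and Pik3r1 with 7 of 13. The orphan receptor Rora had 7 of 9, beside 65 GAS-only and no ADIPO-only region. Snrk had 7 of 7 and Cdc7 7 of 8. Measured per 100 kb of nearest sequence among genes with 5 or more, Cdc7 was highest at 7.36, followed by Fgd2 at 6.31, Tob1, an antiproliferative gene, at 6.25, and the ubiquitin ligase Smurf1 at 6.17.

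The strongest shared distal regions by rank were mostly regions called in nearly every list. Of the 10 with the highest lower percentile, 9 were called in 18 or more of the 22 other lists of the series, H3K27me3 lists included, and their widths ran from 308 to 1117 bp. In 7 of those 9, for which a window of 300 bp was read from the genome, repeat-masked bases made up 29.7 to 92.3% of it. Over all shared distal regions 25 were of this kind, and without them the shared share was 16.5%. The exception was a region of 75709 bp over introns and an exon of Zbtb16 (chr9:48691850-48767558), a zinc finger factor that glucocorticoids induce, at the 99.99th percentile in ADIPO and the 99.98th in GAS. It was called in 13 of the 22 lists.

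Without the regions of nearly every list, a choice made after the data were seen, the 10 strongest still held narrow regions called in many lists. Those nearest to Wls, Lama1, Tcstv3 and Tcte2 were called in 15 to 17 of the 22 lists, and at least 62.0% of each of their windows was repeat-masked. Of the wide regions, a region lay at Ywhag (chr5:135902994-135927877, overlapping an exon), another in an intron of Nfib (chr4:82525676-82544228), another between genes at Pomgnt2 (chr9:122016389-122038033) and another at Ptpn1 (chr2:167841354-167855276), the phosphatase that acts on the insulin receptor, 76781 bp from its TSS. A further region of 25904 bp overlapped an exon and lay in the genes Cenpp and Ippk (chr13:49448463-49474366). Its nearest TSS, 18952 bp away, was that of the retrogene Tes3-ps. These 5 ranked at about the 99.0th percentile or above in both lists and had H3K27ac in both tissues. The Nfib region had no H3K18la in the 6 other lists, whereas Ywhag had it in all 6.

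The strongest regions of a single tissue were of similar width. Among the 8 ADIPO-only distal regions of largest total signal, the first was 24815 bp wide, 27055 bp from Pank3 (chr11:35717615-35742429), at the 99.8th percentile, with ADIPO H3K27ac and no GAS H3K27ac. Others lay 29920 bp from Id3, an inhibitor of bHLH factors, and over exons of Tmem266. All 8 had ADIPO H3K27ac and 3 had GAS H3K27ac. Among the 8 GAS-only regions were the genes of Ip6k3 (chr17:27148783-27163721), Kcnma1, a potassium channel of muscle and nerve, Msi2 and Sox6, a transcription factor of the fast fibre programme (chr7:115464549-115482142). All 8 had GAS H3K27ac and 1, over Stk10, had ADIPO H3K27ac.

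Genes of the insulin signalling and glucose uptake list held many shared distal regions. Of the 22 genes of this list, 18 had a called promoter in both tissues, against 27.4% of all genes, and 13 (59.1%) were nearest to a shared distal region, against 12.8%. An ADIPO-only distal region lay at 72.7% and a GAS-only one at 81.8% of the genes of this list, against 19.3% and 25.6% of all genes. Their 87 shared regions were 31.8% of their 274 distal regions, where 16.6% were shared over all genes. Foxo1, the pseudokinase Trib1, Pik3r1 and Irs2, with 16, 14, 13 and 12 of the shared regions, also belong to the 20 leading genes. The gene lists were chosen with earlier results of these data known, so the shares are not independent of that ranking. Beside these genes, the Rab GTPase-activating protein Tbc1d4 had 6 shared regions. The insulin receptor Insr had 4, and Slc2a4, the insulin-responsive glucose transporter, had none, with 12.2 kb of nearest sequence. Irs1 had none by nearest TSS, but the 15 shared regions given to Gm9747 have their nearest TSS inside Irs1. The list has a median of 249 kb of nearest sequence per gene, against 43.6 kb for all genes.

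Fatty acid genes, which are more compact, gave smaller counts. Of 28 genes 22 had a called promoter in both tissues and 13 had a shared distal region, 32 regions in all (29.9% of 107). Over all genes 27.4% had such a promoter, 12.8% had a shared distal region, and 16.6% of distal regions were shared. The fatty acid transporter Cd36 had 6, the coactivator Ppargc1b and the monoglyceride lipase Mgll 5 each, and the nuclear receptor Ppara and the phosphatidate phosphatase Lpin1 3 each. The fatty acid synthase Fasn and Acaca were called at the promoter in ADIPO and not in GAS, while Cpt1b, the muscle form of carnitine palmitoyltransferase, and Fabp3 were called in GAS and not in ADIPO. At Acsl1, 12 regions were ADIPO-only, 1 was GAS-only and 1 was shared.

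Transcription factors of the 2 programmes were counted in the same way, and differences between their lists were not tested. Of 17 adipogenic factors, 14 had a called promoter in both tissues and 9 a shared distal region (27.4% and 12.8% of all genes), with 67 shared regions (28.0% of 239, against 16.6% over all genes), of which Nfia, Ebf1 and Nfib, all among the 20 leading genes, held most. An ADIPO-only distal region lay at 70.6% and a GAS-only one at 64.7% of the 17 genes, against 19.3% and 25.6% of all genes. The adipogenic list has a median of 211 kb of nearest sequence per gene, against 43.6 kb for all genes. Pparg, the nuclear receptor of adipogenesis, was called at its promoter in both tissues, at the 91.7th percentile in ADIPO and the 20.3rd in GAS, and its 8 distal regions were all ADIPO-only. Of 19 muscle factors, 17 were called in GAS, against 37.0% of all genes, and 8 (42.1%) in ADIPO, near the 45.6% of all genes. Those 8 were called in both tissues, against 27.4% of all genes. A shared distal region lay at 6 of the 19 (31.6%), against 12.8% of all genes, and the list has a median of 209 kb of nearest sequence. Of the 154 distal regions of the muscle factors, 20 (13.0%) were shared. Maf had 10 of these and Tead1 6. Myod1, Myog and Myf6 had none, and no promoter peak in ADIPO, and Mef2c had 24 GAS-only and 1 shared region.

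Matrix, caveola and signalling genes were counted in the same way, where 12.8% of all genes had a shared distal region and 16.6% of all distal regions were shared. Of 17 collagen and extracellular matrix genes, 14 were called at the promoter in both tissues (82.4%, against 27.4% of all genes) and 13 (76.5%) had a shared distal region, 41 in all (32.03% of 128), with Col6a3 at 7, Col15a1 at 5 and Lamc1, Nid2, Col6a1 and Col6a2 at 4 each. In the TGF-beta and BMP list 14 of 23 genes had one, led by the receptor Tgfbr2 with 8 and the ligase Smurf1 with 7, and 20.5% of 195 regions were shared. In the mesenchymal and positional list it was 14 of 24, with 14 regions at Tcf7l2 and 11 at Zeb2, and 19.1% of 309 regions. The median sequence nearest to a gene of the mesenchymal list was 488 kb, and 137 kb and 148 kb in the collagen and TGF-beta lists, against 43.6 kb for all genes. Regions of the single-tissue classes lay at more of its genes than shared ones, with an ADIPO-only and a GAS-only distal region at 19 of 24 each (79.2%), against 19.3% and 25.6% of all genes. In the collagen list the shares were 76.5% and 82.4%, and in the TGF-beta list 52.2% and 78.3%. Caveola genes had 13 shared regions (29.5% of 44) at 5 of 10 genes, with Cavin2 at 4 and Pacsin2 at 3. Cav3 and Cavin4, the muscle forms, were called at the promoter in GAS and not in ADIPO. The glucocorticoid and clock list had a shared region at 11 of 21 genes (21.4% of 103 regions), led by Arntl with 5 and Zbtb16 with 4.

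Immediate early genes, which many stimuli induce within minutes, had a shared region at 10 of 20 genes (12.8% of all genes), 27 regions in all (19.7% of 137, against 16.6% over all genes). Klf6 held 11 of them and Jun 5. Their promoters were called at 19 of 20 in GAS and 14 of 20 in ADIPO, against 37.0% and 45.6% of all genes, and Fosb, Nr4a1, Egr2, Egr3, Btg2 and Klf4 were called in GAS alone. The actin and adhesion list had one at 8 of 20 genes (19.4% of 129), led by Svil with 9 and Tln2 with 6. Glycolysis and lactate genes were called at the promoter in both tissues at 15 of 17, against 27.4% of all genes, and 3 (17.6%) had a shared distal region, near the 12.8% of all genes. Of their 14 distal regions 6 (42.9%) were shared, against 16.6% over all genes. The lactate transporter Slc16a1 held 4 of the 6, and Ldha, Ldhb and Pkm had none. Of the 8 housekeeping genes all 8 were called in both tissues and 2 had shared distal regions, 6 in all (31.6% of 19).

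Marker genes of single cell types differed in how many of their distal regions were shared, where 16.6% were shared over all genes. The 16 adipocyte markers had 5 of 32 (15.6%), at Lpl (4) and Lep (1), beside 25 ADIPO-only and 2 GAS-only regions. The 20 fibre markers had 1, at Casq1, beside 19 GAS-only and no ADIPO-only region. The 16 endothelial markers had 6 shared, 7 ADIPO-only and 63 GAS-only regions, and Kdr alone had 13 GAS-only ones. Fibroblast and progenitor markers had the largest part, 14 shared of 43 distal regions (32.6%), with Col1a1 at 4 and Dcn at 3, and smooth muscle and pericyte markers had 8 of 26 (30.8%), with Acta2 and Notch3 at 2 each. Macrophage and leukocyte markers had 1 shared region, at Mrc1, and satellite cell, Schwann and mesothelial markers none of 15. The part of fibroblasts, endothelial cells and other cells of the muscle in the shared regions was not tested.

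Matches to 12 motifs were counted in the 300-bp windows. These motifs, searched on both strands, were AP-1 (TGANTCA), C/EBP (TTGCNNAA), MYOD E-box (CAGCTG), TEAD (GGAATG), a glucocorticoid receptor core (ACANNNTGT), FOX (TGTTTAC), ETS (CAGGAAGT), EBF (TCCCNNGGGA), ERR (TCAAGGTCA), NFI (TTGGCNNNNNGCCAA), a PPAR direct repeat (AGGTCANAGGTCA, which shares letters with ERR) and MEF2, by name. A match is a run of letters and was not taken as a bound site. C/EBP matches were found in 22.8% (21.9 to 23.7%) of ADIPO-only and 11.3% (10.9 to 11.8%) of GAS-only windows, with 15.8% over all 31616 distal windows. Shared regions lay between, at 19.2% (18.1 to 20.2%) of windows on the ADIPO stretch and 14.8% (13.9 to 15.8%) of windows on the GAS stretch. MEF2 matches went the other way, at 0.466% of ADIPO-only, 1.09% and 2.01% of shared and 2.55% of GAS-only windows, with 1.73% over all.

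The remaining motifs were counted in the same windows. MYOD E-boxes were in 18.8% of ADIPO-only and 24.7% of GAS-only windows, and in 24.3% of shared windows on the ADIPO and 27.3% on the GAS stretch, with 23.0% over all. AP-1 matches were in 10.8% and 14.2% of ADIPO-only and GAS-only windows, and in 12.9% and 14.6% of shared windows. TEAD matches were at 18.04% and 17.9%, and at 19.4% and 19.1% in shared windows, with intervals of ADIPO-only and GAS-only windows that overlap. EBF matches were in 1.22% and 1.20% of ADIPO-only and GAS-only windows and in 2.06% (1.71 to 2.48%) of shared windows on the ADIPO stretch, and in 1.59% (1.28 to 1.961%) of those on the GAS stretch, an interval that overlaps both single-tissue classes. ERR matches were in 0.535% (0.402 to 0.710%) of ADIPO-only and 0.978% (0.843 to 1.134%) of GAS-only windows, intervals that do not overlap, and in 0.573% and 0.860% of shared windows. FOX matches were in 3.74% and 5.06% of ADIPO-only and GAS-only windows and in 4.41% and 4.89% of shared windows, and ETS matches in 2.66% and 3.31% and in 3.84% and 4.05%. Glucocorticoid receptor matches went the other way, with 12.9% of ADIPO-only and 10.8% of GAS-only windows, and 12.6% and 11.02% of shared windows. The NFI motif was found in 21 and the PPAR repeat in 28 of all 31616 windows, too few to set the classes apart. Shared windows were richer in G and C, with a median of 50.7% on the ADIPO and 51.0% on the GAS stretch, against 48.3% in ADIPO-only and 49.0% in GAS-only windows, and the part of base composition in the motif shares was not tested.

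**Figure D5:**
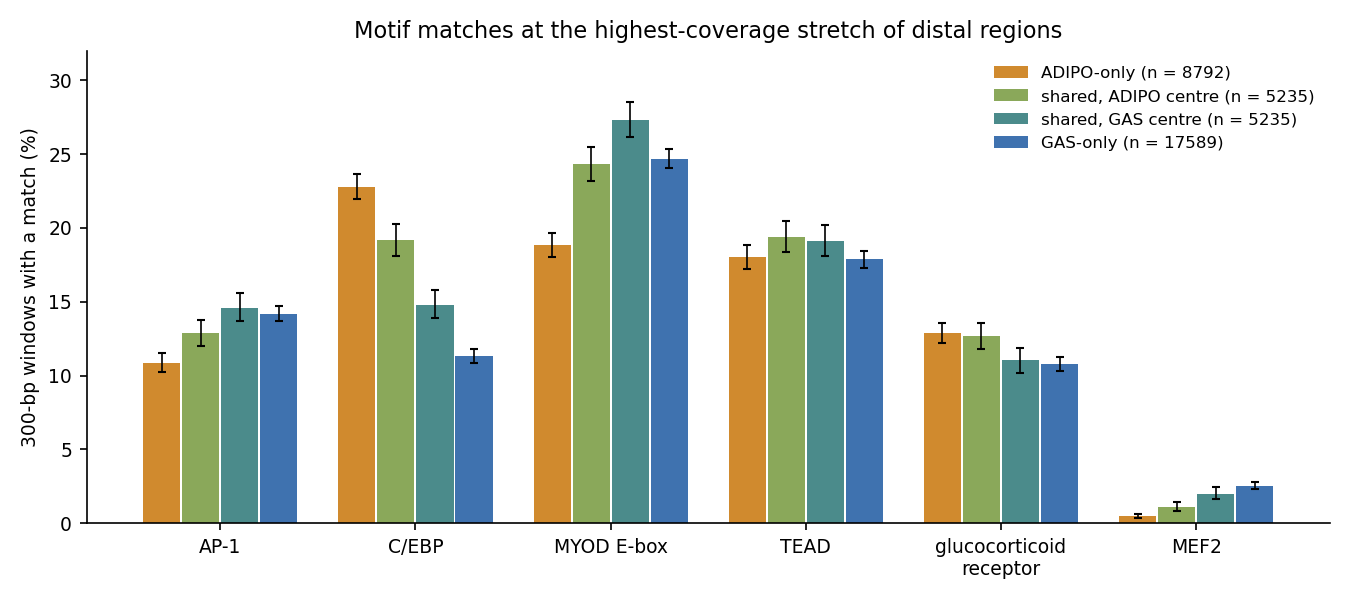
Percent of 300-bp windows at the highest-coverage stretch of distal regions (y axis) with a match to 6 motifs (x axis), for ADIPO-only, GAS-only and shared regions, the last centred on the ADIPO or on the GAS stretch, with 95% Wilson intervals. C/EBP falls from 22.8% in ADIPO-only to 11.3% in GAS-only windows, and MEF2 rises from 0.466% to 2.55%.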

How the data were processed

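Peaks of H3K18la and other marks were analysed as deposited, from 24 lists of which the ADIPO and GAS H3K18la lists were compared. According to the submitters' processing notes, the tools were FastQC 0.11.0, Trim Galore 0.6.6, Bowtie2 2.4.4, SAMtools 1.13, bedtools 2.30 and SEACR 1.3, with mm10 as the build. Where a group had 2 samples the authors pooled them, and they kept the top 1% of regions in stringent mode. All lists of MB and BMDM, and the H3K27ac lists of ESC-ser and PIM, rest on 1 sample each. The study's methods describe removal of peaks over blacklisted regions, and whether this was done before deposit, like removal of duplicates, is not given in the sources used here. The deposited signal columns give the total and the maximum coverage of a peak, which were ranked within a list only. Sequencing depth was not analysed here, so the precision it gives is unknown. Intervals are 95% Wilson or Newcombe intervals.

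Promoters were 2000 bp on each side of the starts of 141767 GENCODE vM21 transcripts. A distal region was given to the protein-coding gene with the nearest start, among 20780. The genes named were the 20 with most shared distal regions, the 10 strongest shared and 8 strongest regions of each tissue, the 10 leading genes of the 5000-peak lists (with those tied at the lowest count), and up to 4 leading members of each of 20 gene lists. Further genes, the markers not called and the sequences shown were chosen after their values were seen. The regions and lists were chosen with earlier results of these data known. Of the list entries 6 were not found on chromosomes 1 to 19. Single values of some list members are not reported here.

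Counting used Python 3.11.15, numpy 2.4.6, pandas 2.3.3, scipy 1.17.1, matplotlib 3.10.9, bedtools 2.31.1 and samtools 1.23.1, and was tested on simulated data. Alternatives covered peak number, list size, promoter width, start sites, overlap, chromosome X, merging and gene assignment.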

Additional observations from a re-analysis of the deposited data

How the results depend on the processing

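Promoter regions were shared more often than distal regions in 10 of 10 settings, and of 51 alternative values 20 stayed within the interval of the reported value, 31 moved and 0 reversed. The 5 values below are, in this order, the shared share of distal regions (reported 16.6%), that of promoter regions (35.2%), their difference (18.6 points), the share of shared distal regions with H3K27ac in both tissues (47.9%) and the share whose nearest gene had a promoter called in both (62.6%). With 5000 peaks per list they were 10.0%, 19.1%, 9.08 points, 96.6% and 28.0%, where promoter calls were also read from the reduced lists. With the GAS list reduced to 13016 peaks and thus to the bases of the ADIPO list (75.6 Mb), they were 13.6%, 22.4%, 8.78 points, 64.6% and 54.9%. With starts of protein-coding transcripts only, they were 17.8%, 40.4%, 22.6 points, 51.0% and 64.7%. With promoters of 1000 bp on each side, the promoter share was 37.9%, the difference 21.5 points and the last value 60.4%. With an overlap of 50% of the shorter side, distal and promoter shares were 16.0% and 34.5%. Counted by ADIPO peak, the first 3 values were 43.3%, 53.1% and 9.77 points and the last was 66.9%, and by GAS peak they were 25.4%, 52.4%, 26.98 points and 64.4%. In an alternative chosen after seeing the data, distal regions with GAS H3K4me3 counted as promoter regions, which gave a distal share of 13.4%, a difference of 22.02 points and 40.4% with H3K27ac in both. The cause of these moves was not tested.

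No paired analysis was possible because the samples of each tissue were pooled before peak calling, and no fit without a single sample was run for the same reason. The 2 tissues also differ in mouse line, nucleus preparation and cell purity, which cannot be told apart from the tissue, and the sex given for ADIPO is uncertain. A peak that is missing from a list is not shown to lack the mark, and depth was not analysed here.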
